A study of Saccharomyces cerevisiae with 14 samples.

Results

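Translation factors are the cytosolic proteins that load ribosomes onto mRNA, move them along it and release the finished protein, and the 36 genes described here are the initiation factors (eIFs), elongation factors (eEFs) and release factors (eRFs) of budding yeast together with PAB1, the poly(A) binding protein. The list was drawn up by function. Of the 36, 30 had a row among the 5945 RNAs of the count tables, and 29 passed the filter on low counts, among 4921 RNAs and 4642 mRNAs tested. PRT1 (YOR361C), the eIF3b subunit, had 1 to 6 counts per library and did not pass. TIF1 and TIF2 (eIF4A), TEF1 and TEF2 (eEF1A) and EFT1 and EFT2 (eEF2), 3 pairs of near-identical genes, are not analysed here.

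The study asked which RNAs are bound by Ccr4, the main cytoplasmic deadenylase of yeast, and by 2 proteins that associate with it, the DEAD-box helicase Dhh1 and the PUF family protein Puf5. Haploid BY4741 cells carrying a myc-tagged Ccr4, Dhh1 or Puf5 were grown at 30° in rich medium (YPAD) and crosslinked with formaldehyde. RNA recovered by immunoprecipitation (IP) was sequenced, with 3 libraries for each of the Ccr4 IP, Dhh1 IP and Puf5 IP, 3 for the mock IP from untagged cells (UT IP) and 2 for the input RNA of untagged cells (UT input). The labels name the source of every sample as wild type cells, the tagged strains included. No input from a tagged strain was analysed here, so that the amount of an mRNA in a tagged strain and its recovery by that IP cannot be told apart.

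Initiation starts when eIF4E binds the cap and eIF4G bridges it to eIF4A and to Pab1 on the poly(A) tail. The eIF2 ternary complex then brings the initiator tRNA to the small ribosomal subunit, which eIF1, eIF1A, eIF3 and eIF5 hold in a scanning state, and eIF2B recharges eIF2 with GTP. Elongation is driven by eEF1A with its exchange factor eEF1B, by eEF2, by eIF5A and, in fungi, by the ATPase eEF3, and release by eRF1 and eRF3. In log-phase yeast these proteins are abundant, and binding of eIF4E and Pab1 to an mRNA is classically set against its deadenylation and decapping.

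Each library held 20376517 to 23943342 counted reads, of which 95.1 to 97.4% were ribosomal RNA. The reads on mRNAs numbered 476905 to 522066 in the UT IP, 762704 to 932141 in the Ccr4 IP, 680587 to 872795 for Dhh1 and 598628 to 757613 for Puf5, and therefore an mRNA could be compared with the UT IP on either of 2 scales. On the scale of all reads a typical mRNA lay above the UT IP, with a median log2 ratio of 1.24 in the Ccr4 IP, 0.94 for Dhh1 and 0.61 for Puf5 over 4642 mRNAs. On the scale of the typical RNA (TMM factors) these medians were 0.13, 0.04 and 0.04. The factor mRNAs were abundant: 27 of 29 lay among the 929 most abundant mRNAs of the input. These are the nearer reference group, and their values are given beside most of the main counts.

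Translation factor mRNAs had lower ratios than the median mRNA in the Ccr4 IP, and 2 of 29 were enriched, where enriched means a log2 ratio over 1 on the scale of all reads at a false discovery rate (FDR) below 1% in edgeR. The same call was made for 57.8% of all RNAs tested and for 31.5% of the abundant mRNAs. The median log2 ratio of the factors was 0.39, against 0.67 for the abundant mRNAs, and all 29 lay below the median mRNA. Without an enrichment cutoff, 9 of 29 were higher than in the UT IP and 2 were lower, where 68.5% and 0.366% of all RNAs and 58.1% and 1.4% of the abundant mRNAs were. In the Dhh1 IP 6 of 29 were enriched (37.4% of all RNAs, 19.4% of the abundant mRNAs), with a median of 0.69 against 0.66 for the abundant mRNAs, and 21 were higher at this FDR (53.4% of all RNAs, 63.9% of the abundant). In the Puf5 IP none was enriched (17.6% of all RNAs, 11.8% of the abundant), 12 were higher (23.6% and 28.8%), none was lower (0.874% of all RNAs, 0.323% of the abundant) and the median was 0.53 against 0.39. By median the factors thus stood below the abundant mRNAs in the Ccr4 IP and near or above them in the other 2 IPs. Of the factors that were higher, 4 of 9 in the Ccr4 IP, 15 of 21 for Dhh1 and 2 of 12 for Puf5 stayed past the test in every fit that left out 1 library.

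**Figure D1:**
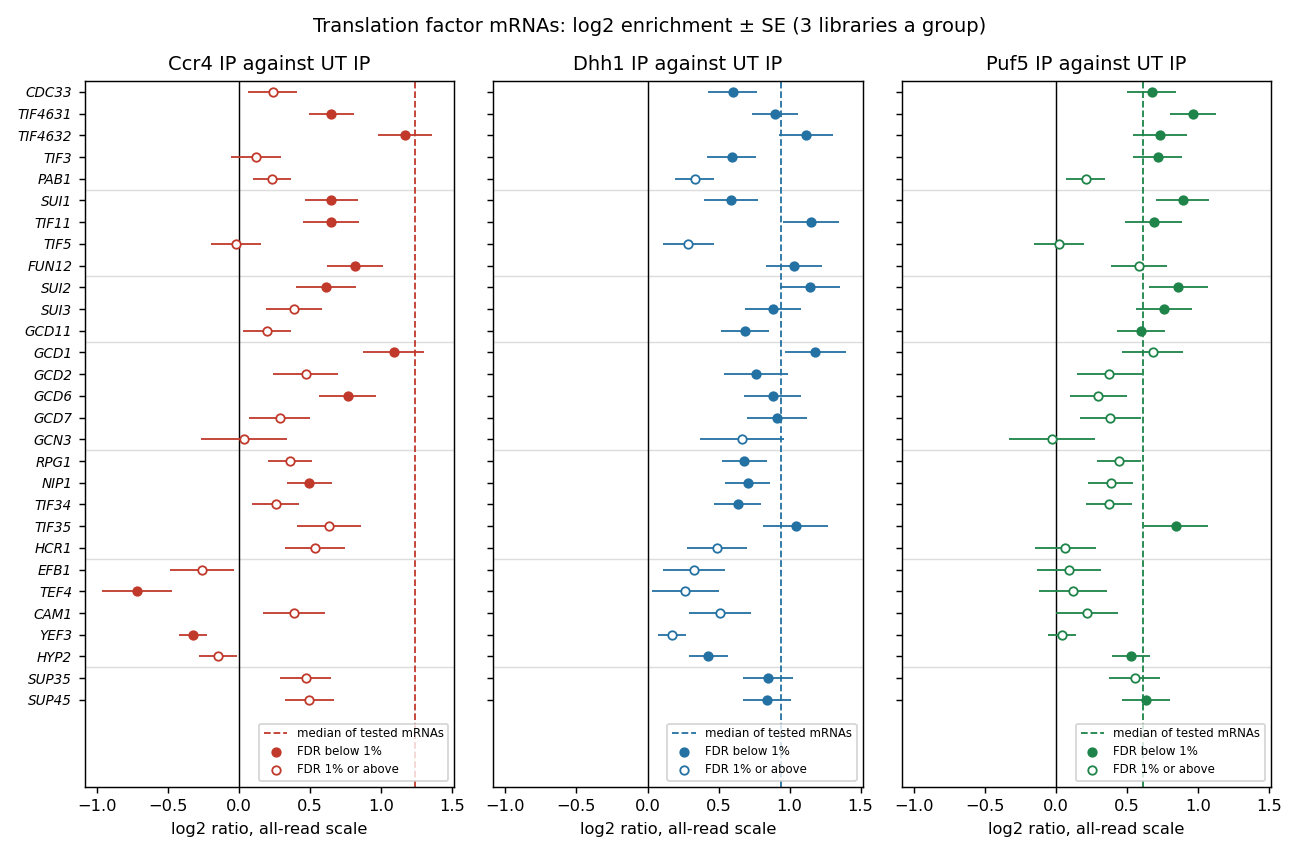
Log2 ratio of each of the 29 tested translation factor mRNAs (rows, grouped by role) in the Ccr4 IP, Dhh1 IP and Puf5 IP against the UT IP on the scale of all reads, with the standard error (3 libraries per group); filled points have an FDR below 1% and the dashed line is the median of 4642 mRNAs. All 29 points lie left of the dashed line at 1.24 in the Ccr4 IP, with TEF4 and YEF3 as the filled points below 0.

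The cap-binding group held the most enriched factor of the Ccr4 IP. TIF4632 (YGL049C), one of the genes for the eIF4G scaffold, had 106, 98 and 111 counts in the UT IP, 287, 211 and 194 in the Ccr4 IP, 222, 236 and 194 for Dhh1 and 169, 171 and 182 for Puf5. Every tagged library was above every UT IP library. Such a separation was common on the scale of all reads: 79.3, 76.6 and 50.6% of all mRNAs showed it in the Ccr4, Dhh1 and Puf5 IPs. Of the 29 factors, 19, 24 and 19 did so in the same order. In the Ccr4 IP 3 factors lay wholly below the UT IP (0.991% of all mRNAs), and in the other IPs none did. The log2 ratio was 1.16 ± 0.19 (SE) in the Ccr4 IP (edgeR adjusted p = 7.1e-06), 1.11 ± 0.19 in the Dhh1 IP (adjusted p = 4.1e-05) and 0.73 ± 0.19 in the Puf5 IP (adjusted p = 0.0035). The UT input had 177 and 169 counts of TIF4632, close to the Puf5 IP, and the UT IP itself lay below the input by a log2 of -0.85 ± 0.21 (adjusted p = 0.0097). Against the input instead of the UT IP the log2 ratio of TIF4632 was 0.32 ± 0.20 in the Ccr4 IP (adjusted p = 0.19).

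Its paralogue TIF4631 (YGR162W), the other eIF4G gene, had 555, 479 and 585 counts in the UT IP and rose in all 3 tagged IPs without passing the enrichment cutoff. Its Puf5 IP libraries had 1264, 864 and 1021 counts, a log2 ratio of 0.97 ± 0.16 (adjusted p = 3.4e-05) and the highest of the 29 in that IP. With 980, 803 and 691 counts in the Ccr4 IP and 1128, 873 and 877 for Dhh1, all above the UT IP, it had log2 ratios of 0.65 ± 0.16 in the Ccr4 IP and 0.90 ± 0.16 for Dhh1. CDC33 (YOL139C, eIF4E) and TIF3 (YPR163C, eIF4B) did not pass the test in the Ccr4 IP, at 0.24 ± 0.17 and 0.12 ± 0.17, and rose in both other IPs by 0.59 to 0.72. CDC33 had 291, 256 and 210 counts in the UT IP, 327, 266 and 276 in the Ccr4 IP, 434, 318 and 341 for Dhh1 and 418, 348 and 438 for Puf5. TIF3 had 279, 229 and 226, 220, 284 and 268, 414, 323 and 318, and 434, 338 and 428 counts in the same order of groups. In counts both genes overlapped with the UT IP in the Ccr4 libraries and lay wholly above it in the others. On the scale of all reads the Ccr4 libraries of CDC33 lay wholly above the UT IP, whereas those of TIF3 overlapped with it.

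PAB1 (YER165W) did not differ from the UT IP past the test in any IP on the scale of all reads. It had 1061, 976 and 1053 counts in the UT IP, 1294, 1173 and 1064 in the Ccr4 IP, 1401, 1145 and 1157 for Dhh1 and 1311, 1010 and 1238 for Puf5. The Ccr4 and Dhh1 libraries were all above the UT IP in counts, whereas the Puf5 libraries overlapped with it. The log2 ratios on the scale of all reads were 0.23 ± 0.14, 0.33 ± 0.14 and 0.21 ± 0.14 in the order Ccr4, Dhh1 and Puf5 (adjusted p = 0.12, 0.033 and 0.21). On the scale of the typical RNA PAB1 fell in all 3 IPs, with log2 ratios of -0.91 ± 0.10 in the Ccr4 IP, -0.59 ± 0.10 for Dhh1 and -0.38 ± 0.10 for Puf5. The call in the Puf5 IP (adjusted p = 0.0084) was kept in 2 of the 12 fits that left out a library.

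Among the factors of scanning and start codon choice, SUI1 (YNL244C, eIF1), TIF11 (YMR260C, eIF1A) and FUN12 (YAL035W, eIF5B, the GTPase of subunit joining) rose in the Ccr4 IP by 0.65 to 0.81, and TIF5 (YPR041W, eIF5, the GTPase activator of eIF2) did not. SUI1 had 155, 142 and 121 counts in the UT IP, 220, 214 and 205 in the Ccr4 IP, 241, 170 and 189 for Dhh1 and 275, 210 and 290 for Puf5, where it was second among the 29 factors (0.89 ± 0.19, adjusted p = 0.00049). TIF11 had 216, 194 and 200 counts in the UT IP, 361, 287 and 284 in the Ccr4 IP, 573, 368 and 358 for Dhh1 and 326, 232 and 425 for Puf5. All tagged libraries of both genes were above the UT IP. TIF11 was enriched in the Dhh1 IP at 1.15 ± 0.20 (adjusted p = 4.4e-05). FUN12 had 145, 138 and 137 counts in the UT IP, 189, 220 and 311 in the Ccr4 IP, 289, 251 and 278 for Dhh1 and 191, 229 and 208 for Puf5, and was enriched in the Dhh1 IP at 1.03 ± 0.20 (adjusted p = 0.00012), close to the cutoff. TIF5 had 249, 231 and 317 counts in the UT IP, 266, 221 and 277 in the Ccr4 IP, 347, 293 and 288 for Dhh1 and 309, 229 and 268 for Puf5, which overlapped with it in each IP. On the scale of the typical RNA TIF5 fell in the Ccr4 IP by 1.15 ± 0.15 and in the Dhh1 IP by 0.63 ± 0.15 (adjusted p = 6.4e-06 and 0.0078), the latter kept in 5 of 12 fits that left out a library.

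The 3 genes of eIF2 all rose in the Dhh1 and Puf5 IPs. SUI2 (YJR007W), the alpha subunit that Gcn2 phosphorylates under amino acid starvation, had 124, 88 and 90 counts in the UT IP, 132, 145 and 172 in the Ccr4 IP, 257, 169 and 211 for Dhh1 and 191, 147 and 210 for Puf5. No tagged library fell within the range of the UT IP. Its log2 ratio was 1.14 ± 0.21 in the Dhh1 IP (adjusted p = 7.7e-05), 0.86 ± 0.21 in the Puf5 IP (adjusted p = 0.002) and 0.61 ± 0.21 in the Ccr4 IP (adjusted p = 0.0099, kept in 5 of 12 fits that left out a library). SUI2 was also lower in the UT IP than in the UT input, with 155 and 208 input counts and a log2 of -0.98 ± 0.23 (adjusted p = 0.0071). Its ratio to the input in the Ccr4 IP was -0.36 ± 0.23 (adjusted p = 0.18). SUI3 (YPL237W) and GCD11 (YER025W), the beta and gamma subunits, rose in the Dhh1 IP (0.88 ± 0.20 and 0.69 ± 0.17) and the Puf5 IP (0.76 ± 0.20 and 0.60 ± 0.17), and had values of 0.39 ± 0.20 and 0.20 ± 0.17 in the Ccr4 IP. GCD11 had 343, 323 and 320 counts in the UT IP, 377, 358 and 365 in the Ccr4 IP, 652, 457 and 410 for Dhh1 and 501, 406 and 581 for Puf5, so that the UT IP lay below every tagged library.

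Of the 5 subunits of eIF2B, the exchange factor of eIF2, GCD1 and GCD6 rose in the Ccr4 IP. The counts of GCD1 (YOR260W, gamma) were 116, 164 and 103 in the UT IP, 235, 214 and 350 in the Ccr4 IP, 313, 269 and 253 for Dhh1 and 229, 167 and 220 for Puf5. Its log2 ratio was 1.09 ± 0.22 in the Ccr4 IP and 1.18 ± 0.22 for Dhh1 (adjusted p = 7.6e-05 in each). The value in the Ccr4 IP rested partly on replicate 3, where 266 of the counts were in the 3′ segment against 100 and 84 in the other libraries, and was 0.84 without that library, below the enrichment cutoff. It was also just below the cutoff without UT IP replicate 1 (0.99) or UT IP replicate 3 (0.96), and the test itself passed in each of these fits. In the Dhh1 IP GCD1, GCD2, GCD6 and GCD7 rose by 0.76 to 1.18. In the Puf5 IP none of the 5 passed the test, and GCN3 (YKR026C), the regulatory alpha subunit, was lowest of the 29 factors at -0.03 ± 0.30. GCN3 had 60, 34 and 76 counts in the UT IP and 63, 61 and 45 in the Ccr4 IP. It had 86, 75 and 95 for Dhh1 and 71, 33 and 62 for Puf5. In counts each tagged IP overlapped with the UT IP, whereas on the scale of all reads the Dhh1 libraries lay wholly above it.

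The eIF3 subunits took a middle position. NIP1 (YMR309C, eIF3c) was the only one of 5 past the test in the Ccr4 IP, at 0.49 ± 0.16 (adjusted p = 0.0066), whereas in the Dhh1 IP RPG1 (eIF3a), NIP1, TIF34 (eIF3i) and TIF35 (YDR429C, eIF3g) rose by 0.63 to 1.04. NIP1 had 481, 391 and 454 counts in the UT IP and 705, 534 and 580 in the Ccr4 IP. It had 715, 635 and 703 for Dhh1 and 639, 450 and 637 for Puf5. In counts only the Puf5 libraries overlapped with the UT IP, and on the scale of all reads these too lay wholly above it. TIF35 had 122, 162 and 91 counts in the UT IP, 209, 186 and 174 in the Ccr4 IP, 284, 201 and 255 for Dhh1 and 297, 172 and 207 for Puf5, all above the UT IP, and was enriched in the Dhh1 IP (1.04 ± 0.23, adjusted p = 0.00037). HCR1 (eIF3j) passed in none of the 3 IPs, at 0.54 ± 0.21, 0.49 ± 0.21 and 0.07 ± 0.21 in the order Ccr4, Dhh1 and Puf5. The release factors SUP35 (YDR172W, eRF3) and SUP45 (YBR143C, eRF1) rose in the Dhh1 IP by 0.85 ± 0.18 and 0.84 ± 0.17 (adjusted p = 0.00029 and 0.00021), and SUP45 also in the Puf5 IP by 0.63 ± 0.17.

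Of the 5 elongation factors tested, 4 had a log2 ratio below 0 in the Ccr4 IP on the scale of all reads, as had TIF5 (-0.02 ± 0.18) among the others. Their median was -0.26, against 0.24 to 0.65 for the other role groups, and with the UT input as the reference it was -0.28, near the -0.26 of the eIF2 genes. The difference between role groups was not tested. Of the 4 elongation genes below 0 against the UT IP, YEF3 and TEF4 passed the test. The share of all mRNAs below 0 is not given here. A list of 19 aminoacyl-tRNA synthetase genes, described below, had a median of -0.02 in the Ccr4 IP against the UT IP on the scale of all reads. YEF3 (YLR249W), which encodes eEF3 and carried 42.1 to 56.3% of all reads on the 30 factors, had 9690, 9678 and 9226 counts in the UT IP and 7705, 7592 and 6910 in the Ccr4 IP. The 2 groups did not overlap, and YEF3 fell by 0.33 ± 0.10 (adjusted p = 0.0043, not passing without Ccr4 IP replicate 3, at -0.28, or without UT IP replicate 2, at -0.28). Its 12142, 9301 and 9307 counts for Dhh1 and 10131, 8748 and 10452 for Puf5 overlapped with the UT IP.

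TEF4 (YKL081W), one of the genes for the gamma subunit of eEF1B, had 131, 148 and 111 counts in the UT IP, 97, 67 and 66 in the Ccr4 IP, 168, 152 and 129 for Dhh1 and 200, 91 and 133 for Puf5. All Ccr4 libraries were below all UT IP libraries, and TEF4 fell by 0.72 ± 0.25 (adjusted p = 0.0094), the lowest value of the 29 factors. The call was kept in 4 of the 12 fits that left out a library, in which the log2 ratio ranged from -0.90 to -0.59. CAM1 (YPL048W), its paralogue, had 298, 247 and 215 counts in the UT IP and 421, 290 and 258 in the Ccr4 IP, which overlapped, with a log2 ratio of 0.39 ± 0.22 (adjusted p = 0.1). Its 3′ segment had 224 counts in Ccr4 IP replicate 1, against 118 and 93 in the other Ccr4 libraries. In fits that left out a library the log2 ratio of CAM1 ranged from 0.18 to 0.52. EFB1 (YAL003W), the alpha subunit of eEF1B, had 125, 117 and 153 counts in the UT IP, 97, 99 and 124 in the Ccr4 IP, 197, 152 and 126 for Dhh1 and 134, 101 and 186 for Puf5, with a value of -0.26 ± 0.22 in the Ccr4 IP (adjusted p = 0.28). TEF4 and EFB1 each host a small nucleolar RNA in an intron, and snR18, the one within EFB1, had 111 to 144 counts in the UT IP and 140 to 253 in the Ccr4 IP, against 117 to 153 and 97 to 124 counts of EFB1. Coverage of EFB1 was uneven, with 74 to 110 counts in its middle segment in the UT IP and 47 to 97 in the Ccr4 IP. Its 5′ segment had 17 to 29 and 12 to 24 counts, and its 3′ segment 14 to 30 and 15 to 28. How reads of the host gene and of its intronic RNA were divided was not tested.

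HYP2 (YEL034W), the eIF5A gene expressed in aerobic growth, had 1318, 1207 and 1210 counts in the UT IP, 1195, 1059 and 1020 in the Ccr4 IP, 1964, 1377 and 1456 for Dhh1 and 1864, 1620 and 1871 for Puf5. It rose in the Dhh1 and Puf5 IPs (0.43 ± 0.13 and 0.53 ± 0.13, adjusted p = 0.0073 and 0.0031, kept in 6 and 7 of 12 fits that left out a library) and had a value of -0.15 ± 0.14 in the Ccr4 IP. Its near-identical paralogue ANB1, the eIF5A gene of hypoxic growth, differed from it in where it was recovered. ANB1 had 30, 48 and 57 counts in the UT IP, 177, 112 and 89 in the Ccr4 IP, 27, 39 and 35 for Dhh1 and 42, 44 and 51 for Puf5, and was enriched in the Ccr4 IP on the scale of all reads at 1.49 ± 0.29 (adjusted p = 6.46e-05). With TMM factors its value there was 0.34 ± 0.27 (adjusted p = 0.346). Reads that fit both genes could have been divided between them, and their part was not tested.

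Measured relative to the typical RNA, the factor mRNAs were depleted in the Ccr4 IP. On this scale 21 of 29 fell and none rose at an FDR below 1% in edgeR, where 12.4% of all RNAs and 44.6% of the abundant mRNAs fell and 8.29% of all RNAs and 5.17% of the abundant mRNAs rose. The median log2 ratio was -0.74, against -0.45 for the abundant mRNAs. All 5 elongation genes, 4 of 5 cap-binding genes, 4 of 5 eIF3 subunits and both release factors were among the 21, whereas TIF4632 (0.02 ± 0.16), GCD1 (-0.02 ± 0.22) and FUN12 (-0.29 ± 0.21) were not. The largest decreases were those of TEF4 (-1.86 ± 0.21, adjusted p = 7e-07), YEF3 (-1.46 ± 0.09, adjusted p = 5.8e-10), EFB1 (-1.37 ± 0.20) and HYP2 (-1.29 ± 0.10). In the Dhh1 IP 4 factors fell (HYP2, PAB1, TIF5 and YEF3), where 4.25% of all RNAs and 15.4% of the abundant mRNAs did. In the Puf5 IP 2 fell (PAB1 and YEF3), where 4.25% and 12.3% did. No factor rose in either IP (1.54% of all RNAs did for Dhh1 and 6.02% for Puf5), and at an unadjusted p below 0.05 the number that rose was 0 in the Ccr4 IP, 0 for Dhh1 and 1 for Puf5, where 22.4, 12.8 and 16.0% of all RNAs rose. The direction thus depended on the scale. With TMM factors the ratio went from above 0 to below 0 for 23 of 24 factors in the Ccr4 IP, PAB1 among them. It did so for 23 of 29 in the Dhh1 IP, PAB1 and TIF5 included, and for 15 of 28 in the Puf5 IP, PAB1 included. TMM factors lowered the median of all mRNAs in each IP as well. HYP2 in the Dhh1 IP passed the test in both directions, at 0.43 on the scale of all reads and -0.50 with TMM factors. With reads counted against the mRNA total, 10 of 29 fell in the Ccr4 IP. The share of all RNAs that fell on that total is not given here.

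As a share of all mRNA reads, the 30 factors took 3.48 ± 0.11% (SD, n = 3) in the UT IP, 2.07 ± 0.099% in the Ccr4 IP, 2.93 ± 0.046% for Dhh1 and 2.98 ± 0.042% for Puf5. The UT input stood at 2.96 and 3.24%. The Ccr4 libraries, at 1.96 to 2.16%, were below all other libraries. Without YEF3, an alternative chosen after seeing the data, the share was 1.13 to 1.18% in the Ccr4 IP, still below the other 11 libraries, which ranged from 1.49 to 1.67%. The UT IP (1.53 to 1.57%), Dhh1 IP (1.53 to 1.59%) and Puf5 IP (1.55 to 1.59%) then overlapped. Counted one by one, 16 of 29 factors had a lower share of mRNA reads in each Ccr4 IP library than in all of the UT IP, and 1, TIF4632, a higher one. Of all 4642 mRNAs, 9.61% were lower in this way and 42.0% higher.

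**Figure D2:**
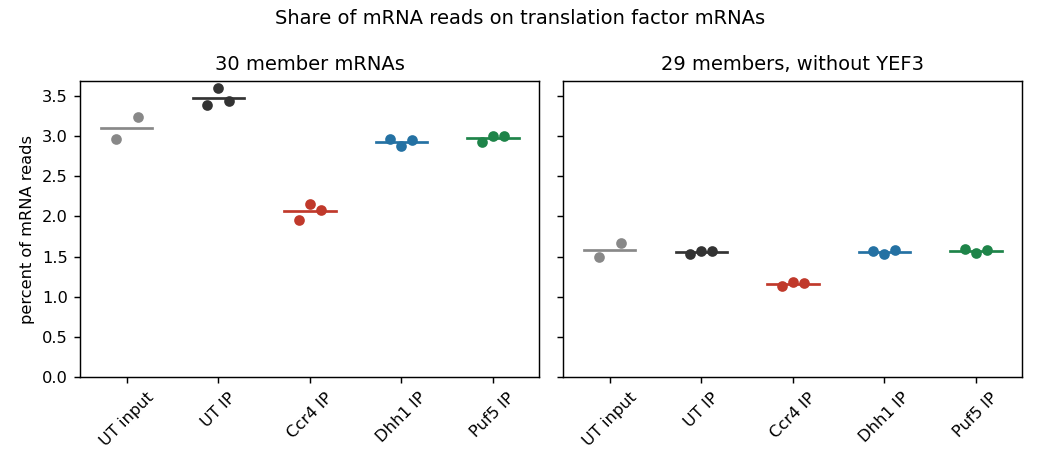
Reads on the 30 translation factor mRNAs as a percent of all mRNA reads in each library (points) with the group mean (bars), with YEF3 on the left and without it on the right. The 3 Ccr4 IP libraries sit at 1.96 to 2.16% with YEF3 and at 1.13 to 1.18% without it, below every other library in both panels.

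**Figure D3:**
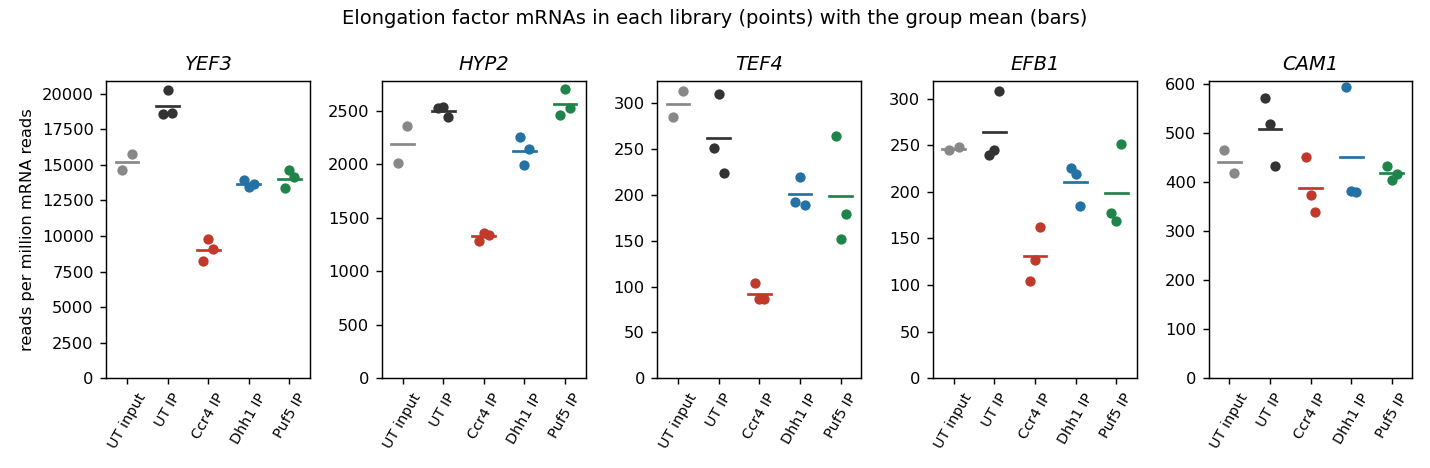
Counts scaled to the total mRNA reads of the same library (vertical axes) for the 5 tested elongation factor mRNAs in each library (points) with the group mean (bars); each panel has its own axis from 0. For YEF3, HYP2, TEF4 and EFB1 all 3 Ccr4 IP libraries lie below all libraries of the other groups, whereas for CAM1 they overlap with every other group.

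The tagged IPs were also compared with each other directly, with no UT IP library as control. The spread was still estimated from all 12 IP libraries, the UT IP included. On the scale of all reads 3 factors, all of them elongation genes, were lower in the Ccr4 IP than in the Dhh1 IP, where 1.08% of all RNAs and 5.06% of the abundant mRNAs were. These were TEF4 (-0.99 ± 0.25, adjusted p = 0.00704), HYP2 (-0.58 ± 0.14, adjusted p = 0.00452) and YEF3 (-0.50 ± 0.10, adjusted p = 0.00107). The median of the 29 was -0.36, whereas that of all mRNAs was 0.25, and none was higher (4.82% of all RNAs, 5.71% of the abundant mRNAs). Only YEF3 kept its call in all 12 fits that left out a library. In the Puf5 IP 4 factors were higher than in the Ccr4 IP, where 2.66% of all RNAs and 6.89% of the abundant mRNAs were: TEF4 (0.84 ± 0.25), HYP2 (0.68 ± 0.14), TIF3 (0.60 ± 0.17) and YEF3 (0.37 ± 0.10), with adjusted p of 0.00754, 0.00035, 0.00744 and 0.00444. HYP2 alone of these passed in each of the 12 fits. Between the Puf5 IP and the Dhh1 IP no factor differed at this FDR (2.01% of all RNAs and 2.58% of the abundant mRNAs were higher, 1.91% and 3.88% lower). At an unadjusted p below 0.05, 0 factors were higher in the Puf5 IP and 7 (24.1%) were lower, as were 25.5% of all RNAs and 32.8% of the abundant mRNAs. With TMM factors 7 (24.1%) were higher and 0 lower at that p. Of all RNAs 12.6% were higher and 7.27% lower, and of the abundant mRNAs 22.1% and 6.57%. These comparisons share libraries and are not independent of each other.

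Relative to the typical RNA the direct differences widened, with 16 factors lower in the Ccr4 IP than in the Dhh1 IP (5.12% of all RNAs, 21.7% of the abundant mRNAs), none higher (3.35% and 3.88%) and 20 higher in the Puf5 IP than in the Ccr4 IP (11% and 33.7%). SUI1 (0.64 ± 0.14) and HYP2 (0.44 ± 0.10) were higher in the Puf5 IP than in the Dhh1 IP on that scale (adjusted p = 0.0054 and 0.0064), among 4.33% of all RNAs.

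The mock IP was set against the input as a measure of background. On the scale of all reads 2 of 29 were lower in the UT IP than in the UT input, SUI2 and TIF4632, where 3.16% of all RNAs and 3.98% of the abundant mRNAs were, and none was higher (0.02% of all RNAs). Both calls depended on single libraries: SUI2 passed in 9 and TIF4632 in 3 of the 14 fits that left out a library, and neither passed with TMM factors. With the UT input as the reference for the tagged IPs, the medians of the 29 were 0.06 in the Ccr4 IP, 0.34 for Dhh1 and 0.12 for Puf5, and those of all mRNAs were 0.79, 0.53 and 0.19. TEF4 in the Ccr4 IP was the lowest of these values at -1.20 ± 0.26 (adjusted p = 0.00072).

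Reads had also been counted in 3 segments of equal length along each transcript, and for each factor the log2 ratio at the 5′ end was subtracted from that at the 3′ end within the same libraries. In the Puf5 IP the 3′ segment was the more enriched one for 6 of 29 factors at an FDR below 5%, where 10.9% of all mRNAs tested and 28.1% of the abundant mRNAs showed this, and none went the other way (0.192%), with 1 at an unadjusted p below 0.05 (3.45%, against 1.37% of all mRNAs). The median difference was 0.62 for the factors and 0.61 for all mRNAs. The 6 were CDC33, TIF3, TIF4631 and PAB1 of the cap-binding group, RPG1 and YEF3.

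CDC33 (eIF4E) showed the largest difference in the Puf5 IP. Its 3′ segment had 91, 85 and 74 counts in the UT IP and 265, 198 and 246 in the Puf5 IP, whereas its 5′ segment had 70, 118 and 60 against 70, 67 and 85. The 3′ counts did not overlap and the 5′ counts did. The difference of the log2 ratios was 1.61 ± 0.29 (edgeR adjusted p = 0.00051). TIF3 followed with 1.57 ± 0.29 (adjusted p = 0.00056), from 94, 82 and 70 counts in the 3′ segment of the UT IP and 220, 197 and 248 in the Puf5 IP, and TIF4631 with 1.29 ± 0.24. The 3′ segment of CDC33 held 56.2 to 63.4% of its reads in the Puf5 IP, against 31.3 to 35.2% in the UT IP and 41.5 to 50.4% in the input. With separate TMM factors for each segment, which remove the difference common to all mRNAs, none of the 6 passed (CDC33 1.01 ± 0.28, adjusted p = 0.0507). With the UT input as the reference, TIF3 (1.82 ± 0.32) and YEF3 (0.59 ± 0.15) passed.

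**Figure D4:**
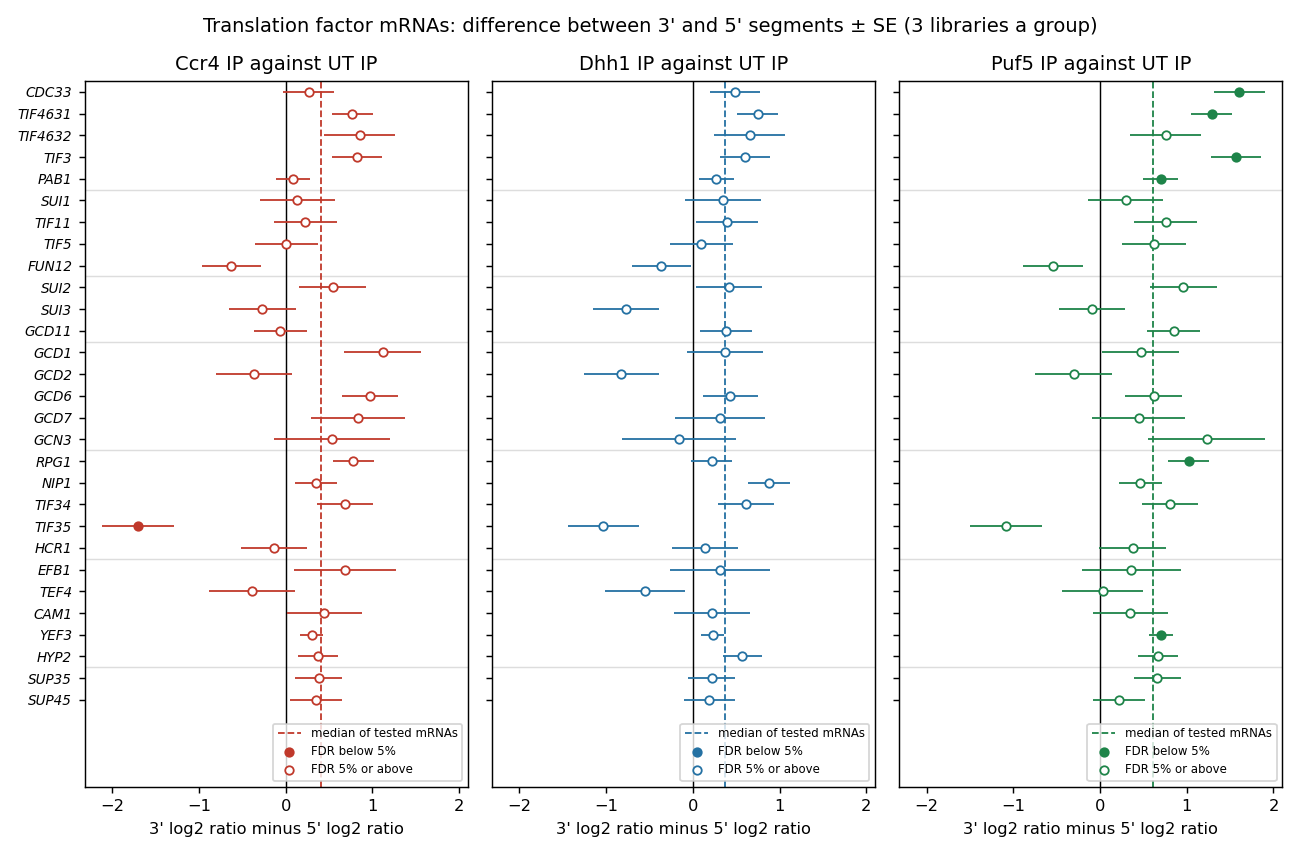
Log2 ratio of the 3′ segment minus that of the 5′ segment for each of the 29 tested factor mRNAs (rows, grouped by role) in the Ccr4 IP, Dhh1 IP and Puf5 IP against the UT IP, with the standard error (3 libraries per group); filled points have an FDR below 5% and the dashed line is the median of all mRNAs tested. In the Puf5 IP the 6 filled points lie right of 0, and in the Ccr4 IP the filled point is TIF35 at -1.70.

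TIF35 (eIF3g) went the other way. Its 5′ segment had 29, 49 and 12 counts in the UT IP and 116, 74 and 65 in the Ccr4 IP, and its 3′ segment 71, 67 and 63 against 54, 65 and 61. Only the 5′ counts rose beyond the range of the UT IP, and the difference was -1.70 ± 0.42 (adjusted p = 0.0158), a direction found for 0.216% of mRNAs in the Ccr4 IP. It did not pass without Ccr4 IP replicate 1, without UT IP replicate 3, whose 12 counts were the lowest, or against the UT input (-0.83 ± 0.40, adjusted p = 0.412). Its values in the Dhh1 IP (-1.03 ± 0.41) and Puf5 IP (-1.08 ± 0.41) did not pass the test. No other factor passed in the Ccr4 IP, where 5.12% of mRNAs and 14.4% of the abundant ones had the more enriched 3′ segment, and none passed for Dhh1 in either direction (1.78% of mRNAs and 5.28% of the abundant ones toward 3′, 0.0481% of mRNAs toward 5′). At an unadjusted p below 0.05 the 3′ segment was the more enriched one for 8 factors (27.6%) in the Ccr4 IP and 4 (13.8%) for Dhh1, where it was for 17.8% and 13.9% of all mRNAs and for 34.6% and 26.2% of the abundant ones. The largest positive values there were GCD1 in the Ccr4 IP (1.12 ± 0.45) and NIP1 in the Dhh1 IP (0.88 ± 0.25, adjusted p = 0.058). Over the 30 factors together, the 3′ segment held at most 29.4% of reads in the UT IP, 33.9 to 36.3% in the Ccr4 IP, 33.7 to 34.9% for Dhh1 and 36.6 to 42.1% for Puf5, with 31.4 to 32.3% in the input. Over all mRNAs these values were at most 30.7%, then 37.1 to 39.5%, 35.5 to 35.6%, 37.7 to 43.5% and 33.8 to 35.2% in the same order.

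Other genes of translation were taken as 3 lists. Of 19 genes of cytosolic aminoacyl-tRNA synthetases, their cofactor ARC1 included, all 19 fell in the Ccr4 IP relative to the typical RNA, with a median of -1.16, and 14 fell for Dhh1 and 6 for Puf5, where 12.4%, 4.25% and 4.25% of all RNAs and 44.6%, 15.4% and 12.3% of the abundant mRNAs fell. FRS2 (-1.48 ± 0.14), DPS1 (-1.45 ± 0.13) and GUS1 (-1.36 ± 0.12) were lowest in the Ccr4 IP, and on the scale of all reads the median of the list was -0.02 there. Of 11 regulators of initiation with a row, 5 fell relative to the typical RNA in the Ccr4 IP. Of these 11, 1, the DEAD-box helicase DBP1, rose (1.29 ± 0.37, edgeR adjusted p = 0.00894), where 8.29% of all RNAs rose. DBP1 had low counts, 9 to 22 in the UT IP and 53 to 124 in the Ccr4 IP. EAP1, an eIF4E-binding repressor, was enriched in the Ccr4 IP on the scale of all reads (1.63 ± 0.24) and had a value of 0.49 ± 0.20 with TMM factors (adjusted p = 0.0642), and the value of CAF20, another such repressor, was 0.50 ± 0.20 there (adjusted p = 0.0223). With TMM factors CAF20 fell in the Ccr4 IP (-0.63 ± 0.17, adjusted p = 0.00706). CAF20 was enriched in the Puf5 IP (1.36 ± 0.19, adjusted p = 3.59e-06). DED1, the helicase paralogous to Dbp1, was highest in the Puf5 IP (1.74 ± 0.16, adjusted p = 2.7e-09), where its 3′ segment was more enriched than the 5′ segment by 2.58 ± 0.23. Like CAF20, DED1 was among the 5 that fell in the Ccr4 IP with TMM factors (-0.47 ± 0.12, edgeR adjusted p = 0.00643). Of 7 other elongation, rescue and recycling genes, ANB1 and DOM34, which dissociates stalled ribosomes, were enriched in the Ccr4 IP on the scale of all reads (1.49 ± 0.29 and 1.37 ± 0.37), where 57.8% of all RNAs were. DOM34 had low counts, 14 to 23 in the UT IP and 41 to 61 in the Ccr4 IP. Relative to the typical RNA the values of ANB1 and DOM34 were 0.34 ± 0.27 and 0.28 ± 0.35 (adjusted p = 0.346 and 0.564). STM1, a ribosome preservation factor, fell on that scale (-1.18 ± 0.10) and had a value of -0.04 ± 0.13 on the scale of all reads (adjusted p = 0.785).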

How the data were processed

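RNA from 3 tagged IPs, the UT IP and the UT input was sequenced with the SOLiD system, and the authors deposited whole-number counts of reads per RNA and per segment of each RNA, not normalized. Their log2 enrichment columns were not used. The methods describe strand-specific counting for regions within mRNAs; whether it was used for these counts, and how reads that fit several genes were handled, is not given in the sources used here.

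Counts were tested with edgeR 4.0.16 (quasi-likelihood F test, Benjamini-Hochberg adjustment over all RNAs tested) in 1 fit of the 12 IP libraries, with the total of all rows as library size, no TMM factors, filterByExpr and a prior count of 1. TMM factors gave the scale of the typical RNA. The UT input was compared in a fit of 14 libraries. The 3′ and 5′ segments were compared in a fit with library terms and a term for segment by group, where both averaged at least 5 counts. Other settings were DESeq2 1.42.0, other library totals, no filter, other thresholds, the replicate number as a block and each library left out. The fits were tested on simulated data. The share of rRNA was held near constant there, so that this test cannot decide between the scales.

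Counts per library were given for factors with the 3 highest and 3 lowest log2 ratios in each IP, the called factors with the smallest p, those with the 2 largest segment differences in each IP, PAB1 and paralogue pairs. Of each further list, at most 4 genes that passed a test were named. The members and lists were chosen with earlier results of these data known. The methods call the 3 replicates biological, and the labels do not say whether they came from separate cultures, so that p-values measure the spread between these libraries. Gene names were taken through a RefSeq table. Sequences are not shown.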

Additional observations from a re-analysis of the deposited data

Results flagged for a closer look

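For 4 factors the test of the difference between tagged IPs itself passed (edgeR, FDR below 1%, scale of all reads). Between the Ccr4 IP and the Dhh1 IP the log2 difference was -0.50 for YEF3, -0.58 for HYP2 and -0.99 for TEF4. Between the Puf5 IP and the Ccr4 IP it was 0.68 for HYP2, 0.37 for YEF3, 0.60 for TIF3 and 0.84 for TEF4. The call of TEF4 in the latter comparison was lost without Puf5 IP replicate 1, with a log2 difference of 0.51 and an adjusted p of 0.105 in edgeR, and it passed in 6 of the 12 fits that left out a library. The Ccr4 IP takes part in all 7 differences.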

How the results depend on the processing

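The number of reads that a library size counts decided most calls, and each value below names the alternative it comes from. Apart from the shares given above, the share of all RNAs called under each alternative is not given here. The counts of factors below thus do not set them apart from other RNAs. With DESeq2, the UT input as the reference, TMM factors, or library totals over mRNAs or without rRNA, 0 factors were enriched in either the Ccr4 or the Dhh1 IP, and with any log2 over 0 accepted, 9, 21 and 12 were higher in the Ccr4, Dhh1 and Puf5 IPs. Of the 29 factors, 23 of 24 with a ratio above 0 in the Ccr4 IP had one below 0 with TMM factors, as had 23 of 29 for Dhh1 and 15 of 28 for Puf5. TMM factors lowered the ratios of other RNAs in these IPs by a like amount, and the share of all mRNAs that turned is not given here. The lists that follow cover the factors named by the rule, and only ratios that passed the test under the main setting or the alternative. With TMM factors these log2 ratios turned negative: CAM1 -0.76, CDC33 -0.90, FUN12 -0.29, GCD1 -0.019, GCD11 -0.93, GCN3 -1.09, NIP1 -0.64, PAB1 -0.91, SUI1 -0.48, SUI2 -0.50, TIF11 -0.49, TIF3 -1.0, TIF4631 -0.50 in the Ccr4 IP and CDC33 -0.33, GCD11 -0.24, HYP2 -0.50, NIP1 -0.21, PAB1 -0.59, SUI1 -0.34, TIF3 -0.33, TIF4631 -0.025, TIF5 -0.63, YEF3 -0.76 for Dhh1 and HYP2 -0.061, PAB1 -0.38, YEF3 -0.55 for Puf5. With DESeq2 these log2 ratios turned negative: CAM1 -0.82, CDC33 -0.95, FUN12 -0.34, GCD1 -0.068, GCD11 -0.99, GCN3 -1.16, NIP1 -0.69, PAB1 -0.96, SUI1 -0.53, SUI2 -0.55, TIF11 -0.54, TIF3 -1.05, TIF4631 -0.55, TIF4632 -0.027 in the Ccr4 IP and CDC33 -0.34, GCD11 -0.26, HYP2 -0.52, NIP1 -0.23, PAB1 -0.61, SUI1 -0.35, TIF3 -0.35, TIF4631 -0.043, TIF5 -0.65, YEF3 -0.77 in the Dhh1 IP and GCD11 -0.028, HYP2 -0.093, PAB1 -0.41, TIF5 -0.60, YEF3 -0.58 in the Puf5 IP. With totals over mRNAs these log2 ratios turned negative: CDC33 -0.52, GCD11 -0.56, NIP1 -0.27, PAB1 -0.53, SUI1 -0.11, SUI2 -0.13, TIF11 -0.12, TIF3 -0.63, TIF4631 -0.12 in the Ccr4 IP and CDC33 -0.058, HYP2 -0.23, SUI1 -0.068, TIF3 -0.063, YEF3 -0.49 for Dhh1 and YEF3 -0.45 for Puf5. Against the UT input these log2 ratios turned negative: SUI2 -0.36, TIF4631 -0.051 in the Ccr4 IP and SUI2 -0.11, TIF4632 -0.12 in the Puf5 IP. With totals over mRNAs, 10, 1 and 1 factors were lower in the Ccr4, Dhh1 and Puf5 IPs, 1 was higher in the Puf5 IP, 6 were lower in the Ccr4 IP than in the Dhh1 IP, 9 were higher in the Puf5 IP than in the Ccr4 IP, and 0 were lower in the UT IP than in the UT input. With TMM factors these last 3 counts were 16, 20 and 0, and 2 were higher in the Puf5 IP than in the Dhh1 IP. At an FDR below 5% on the scale of the typical RNA, 4 were lower and 1 was higher in the Puf5 IP, and with no filter on counts 1 was lower. The 3′ segment was more enriched in the Puf5 IP for 0 factors with TMM factors within segments, where 1 had the more enriched 5′ segment, and for 2 with the UT input. With a mean of at least 10 counts a segment it was so for 2 factors in the Ccr4 IP and 1 for Dhh1. The 5′ call of TIF35 in the Ccr4 IP was lost (0 factors) against the UT input and at an FDR below 1%. Without YEF3 the mean share of mRNA reads was 1.58% in the UT input, 1.56% in the UT IP, 1.16% in the Ccr4 IP, 1.56% for Dhh1 and 1.57% for Puf5. When each library was left out in turn, 1 to 2, 4 to 7 and 0 to 1 factors were enriched in the Ccr4, Dhh1 and Puf5 IPs, and 18 to 21, 2 to 4 and 1 to 3 were lower on the scale of the typical RNA. In the same fits 1 to 3 were lower in the Ccr4 IP than in the Dhh1 IP, 1 to 4 higher in the Puf5 IP than in the Ccr4 IP, and 0 to 3 lower in the UT IP than in the UT input. The 3′ segment was more enriched for 0 to 1, 0 to 1 and 5 to 8 factors in the Ccr4, Dhh1 and Puf5 IPs and the 5′ segment for 0 to 1, 0 to 0 and 0 to 1. The mean shares were 2.02 to 2.12% (Ccr4 IP), 2.92 to 2.96% (Dhh1 IP), 2.96 to 3.00% (Puf5 IP), 3.41 to 3.52% (UT IP) and 2.96 to 3.24% (UT input). The replicate numbers did not pair the libraries: 0 of 18 same-numbered pairs of libraries had deviations from their group means correlated above 0.1 (-0.0428 to 0.0526), and 5 of 12 libraries correlated best with their own number. With the replicate number as a block, 20, 4 and 1 factors were lower on the scale of the typical RNA in the Ccr4, Dhh1 and Puf5 IPs and 1 was lower in the UT IP than in the UT input. Summing the paralogue pairs was not run, since those genes are not analysed here. The cause of these shifts was not tested. PRT1, with 1 to 6 counts per library and 0 in its middle segment, did not pass the filter on counts. The reason for its low counts was not found.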

Other observations

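PRT1 (eIF3b), which was left untested, had 1, 4 and 5 counts in the Ccr4 IP, 4, 2 and 5 for Dhh1, 4, 1 and 3 in the Puf5 IP, 1, 2 and 6 in the UT IP and 1 and 1 in the UT input.

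snR18, the small nucleolar RNA within the intron of EFB1, had 217 and 265 counts in the UT input, above all 3 UT IP libraries (111, 144 and 118). It was lower in the Puf5 IP (87, 94 and 77 counts) than in the Ccr4 IP (140, 148 and 253) by a log2 of -1.09 on the scale of all reads (edgeR adjusted p = 0.000814), though not past the test with TMM factors (-0.57, adjusted p = 0.106), whereas EFB1 differed between these IPs by 0.35 on the scale of all reads (adjusted p = 0.192) and by 0.87 with TMM factors (adjusted p = 0.00255). Between the Ccr4 and Dhh1 IPs ANB1 differed by 1.83 in favour of Ccr4 (adjusted p = 0.000123; 1.58 with TMM factors, adjusted p = 0.000506), and HYP2, its paralogue, was lower by 0.58.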
